A study of Mus musculus with 4 samples.

Results

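Promoters of long intergenic non-coding RNA (lincRNA) genes were examined in E14TG2a.4 cells, a mouse embryonic stem (ES) cell line, by chromatin immunoprecipitation and sequencing (ChIP-seq). The set held 502 promoters of the 1232 lincRNA genes that the GENCODE vM1 annotation (mm9) places on chromosomes 1 to 19, out of 1273 on all chromosomes. A gene entered the set when its transcription start site (TSS) lay over 5 kb from the TSS of every protein-coding transcript, and its promoter was the window of 1 kb on each side of the TSS. The rule used the annotation alone and no reads, but the members and the gene lists below were chosen with earlier results of these data known. The same windows at 22367 protein-coding genes served for comparison, which made 23640 windows with all lincRNA genes. The 3 members nearest the 5 kb limit were 4931431C16Rik at 5057 bases, Gm17554 at 5066 bases and 6330403N20Rik at 5111 bases, with 2, 6 and 4 reads in the scramble H3K4me3 library. The 3 lincRNA genes just outside it were Gm17591 at 4964 bases, Gm12898 at 4957 bases and Gm17638 at 4952 bases, with 1, 4 and 3 reads.

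The series compared the occupancy of Jarid1b with histone H3 trimethylated at lysine 4 (H3K4me3), and H3K4me3 with and without a Jarid1b knockdown. A group of 2 libraries was made from E14 cells with a Jarid1b antibody (labelled Jarid1b-DAIN), with no shRNA named for them. The H3K4me3 libraries came from cells transduced with LKO lentivirus carrying a scramble short hairpin RNA (shRNA) or a Jarid1b shRNA and then selected with puromycin, 1 library each. All cells were feeder independent and grown on gelatin with serum and LIF. No RNA or protein data were analysed here, so the depth of the knockdown was not measured. Of 8 genes that mark ES cells, 7 had H3K4me3 in the scramble library, with 401 reads at Pou5f1 and 239 each at Sox2 and Nanog. The exception was Esrrb, with 3 reads at its gene-level TSS. In the shRNA library 6 of the 8 had it, with Zfp42 (116 scramble and 22 shRNA reads) no longer called. Of 8 genes of other tissues, 1 had it, Cd3e with 11 scramble reads.

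LincRNAs are transcribed by RNA polymerase II from promoters that carry H3K4me3 when active, as those of coding genes do. Jarid1b, the product of Kdm5b, is an enzyme that takes methyl groups off lysine 4 of histone H3, and is found in ES cells at many promoters with CpG islands. Many lincRNA genes are hosts: their introns or exons give rise to small nucleolar RNAs or microRNAs, while others (the Platr transcripts, Tunar, Lncenc1) are known for their expression in pluripotent cells.

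The 6 promoters below carry the main contrasts and are printed from 200 bases before the TSS to 99 bases after it, 5′ to 3′ on the strand of the gene, from mm9, with every CpG in capitals. The first 3 had a larger share of H3K4me3 reads in the Jarid1b shRNA library, and the last 3 had a smaller share. Gm12575 (chr11:82746785-82747084, minus strand) held 15 CpG, Dleu2 (chr14:62301063-62301362, minus strand) held 26 and Gm17494 (chr3:121996368-121996667, minus strand) held 37. Snhg5 (chr9:88417622-88417921, minus strand) held 25, Snhg12 (chr4:131864393-131864692, plus strand) held 18 and C330046G13Rik (chr10:84015984-84016283, minus strand) held 1.
Gm12575: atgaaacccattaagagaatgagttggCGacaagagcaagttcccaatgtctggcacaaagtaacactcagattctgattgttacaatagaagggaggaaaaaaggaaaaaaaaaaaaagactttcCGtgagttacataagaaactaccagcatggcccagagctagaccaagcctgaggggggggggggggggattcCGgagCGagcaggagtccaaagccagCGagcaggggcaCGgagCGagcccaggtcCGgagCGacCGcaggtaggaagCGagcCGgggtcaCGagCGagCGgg
Dleu2: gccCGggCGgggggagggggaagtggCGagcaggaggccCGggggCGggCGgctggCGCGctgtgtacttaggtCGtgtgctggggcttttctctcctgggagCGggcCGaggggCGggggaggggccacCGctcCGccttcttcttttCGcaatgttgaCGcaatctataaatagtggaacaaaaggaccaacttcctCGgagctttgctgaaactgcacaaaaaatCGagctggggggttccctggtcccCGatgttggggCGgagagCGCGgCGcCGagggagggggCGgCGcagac
Gm17494: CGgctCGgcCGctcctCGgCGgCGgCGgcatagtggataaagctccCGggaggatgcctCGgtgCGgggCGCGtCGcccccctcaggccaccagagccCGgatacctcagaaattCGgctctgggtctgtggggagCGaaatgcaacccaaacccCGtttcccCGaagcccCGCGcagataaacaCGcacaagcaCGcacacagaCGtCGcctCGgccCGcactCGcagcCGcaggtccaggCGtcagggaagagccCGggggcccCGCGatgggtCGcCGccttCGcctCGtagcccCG
Snhg5: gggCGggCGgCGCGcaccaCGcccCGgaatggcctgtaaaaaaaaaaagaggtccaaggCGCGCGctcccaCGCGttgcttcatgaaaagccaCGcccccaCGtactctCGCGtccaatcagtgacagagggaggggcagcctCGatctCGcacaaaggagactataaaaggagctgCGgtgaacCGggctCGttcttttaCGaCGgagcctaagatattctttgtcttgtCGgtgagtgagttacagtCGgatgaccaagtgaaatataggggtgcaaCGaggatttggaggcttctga
Snhg12: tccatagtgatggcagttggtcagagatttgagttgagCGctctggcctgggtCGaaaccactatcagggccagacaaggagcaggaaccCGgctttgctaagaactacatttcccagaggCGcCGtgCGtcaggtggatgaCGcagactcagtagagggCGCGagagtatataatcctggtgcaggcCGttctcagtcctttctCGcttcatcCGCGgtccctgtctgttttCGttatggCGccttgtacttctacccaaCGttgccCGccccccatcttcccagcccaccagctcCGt
C330046G13Rik: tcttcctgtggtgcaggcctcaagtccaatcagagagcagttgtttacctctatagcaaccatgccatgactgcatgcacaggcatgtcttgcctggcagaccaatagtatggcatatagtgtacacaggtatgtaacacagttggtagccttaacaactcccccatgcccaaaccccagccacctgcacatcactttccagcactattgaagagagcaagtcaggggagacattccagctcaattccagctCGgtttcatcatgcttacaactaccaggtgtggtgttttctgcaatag
The CpG of Dleu2 and Gm17494 run through the whole stretch, those of Gm12575 lie mostly at and after the TSS, and C330046G13Rik has only its single CpG.

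Reads were counted as unique 5′ positions, and 4336767 and 1602370 were kept in the Jarid1b libraries, 5158330 in the scramble and 2635705 in the Jarid1b shRNA H3K4me3 library. A window at the genome rate would hold 3.39, 1.25, 4.03 and 2.06 reads in the same order, so the second Jarid1b library had the least power to show enrichment. The Jarid1b libraries shared read positions: 16.8% of the plus-strand positions of the second were also in the first, against 1.51% to 1.77% when shifted by 3 to 11 bases, so they were counted as 1 sample. Each condition thus had 1 sample and no test between conditions was possible. All p-values and intervals below therefore cover counting error only and not the spread between samples. Repeats of a position were counted once, without molecular identifiers to tell PCR copies from independent molecules. The shRNA and the library (its depth, its read length and its share of repeated positions) cannot be told apart.

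H3K4me3 lay at 238 of the 502 lincRNA promoters (47.4%, Wilson 95% interval 43.1% to 51.8%) in the scramble library, where 60.5% of all windows were called enriched. A window was called when its reads passed a one-sided Poisson test against the genome rate or, if higher, the rate in the flanking 10 kb on each side, with Benjamini-Hochberg adjusted p under 0.05 over all windows. In the Jarid1b shRNA library 213 were called, where 60.3% of all windows were. The calls overlapped at 203 promoters, 35 were called in the scramble library alone, 10 in the shRNA library alone and 254 in neither. Since the shRNA library held fewer reads, a call in 1 library alone is not shown to be a difference between them. With the scramble library thinned to the depth of the shRNA library, 218 of the 502 were called in it. LincRNA genes left out of the set for lying within 5 kb of a coding TSS had H3K4me3 at 608 of 730 promoters (83.3%, 80.4% to 85.8%). Those windows can hold reads of the coding promoter itself, so this share is not that of the lincRNA starts alone.

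Scramble reads per lincRNA window ran from 0 to 438 with a median of 10, and shRNA reads from 0 to 143 with a median of 6. The 238 promoters called in the scramble library held 9 to 438 reads with a median of 39, which is 9.67 times the genome rate. The 254 promoters called in neither library had a median of 4 scramble reads and 2 shRNA reads, at 0.992 and 0.971 times the genome rate. The set thus ran from windows at the genome rate to windows with reads far above it.

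Where a lincRNA start lay inside the body of a protein-coding gene, H3K4me3 was called less often. Median scramble reads, which do not depend on the flanks, were 5 inside and 18 outside coding gene bodies. Of 164 such promoters 44 were called in the scramble library (26.8%, 20.6% to 34.1%), against 194 of the 338 outside coding genes (57.4%, 52.1% to 62.6%). With distance from the nearest coding TSS the share was 37.8% of 98 promoters at 5 to 10 kb, 47.0% of 100 at 10 to 20 kb, 46.4% of 140 at 20 to 50 kb, 55.4% of 101 at 50 to 100 kb and 52.4% of 63 farther away. The intervals of neighbouring distance classes overlapped.

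The mark was centred just downstream of the TSS. Averaged over the 238 lincRNA promoters with the mark, the scramble library peaked in the first 250 bases after the TSS at 11.05 RPM per kb, where RPM is the count scaled to the reads kept in the library, 19.4 times the level 4 to 5 kb away. The shRNA library peaked in the same bin at 12.1 RPM per kb, 20.2 times its flank. At 13429 coding promoters with the mark the peaks were 18.9 in the scramble and 28.7 in the shRNA library, 26.2 and 38.9 times their flanks. The gap between the H3K4me3 libraries at the peak was thus wide at coding promoters and narrow at lincRNA promoters. The coding scramble peak lay 250 to 500 bases after the TSS, and the coding shRNA peak in the first 250 bases. In the bin centred 375 bases after the TSS the lincRNA order turned, with 9.60 in the scramble and 8.17 in the shRNA library. Coding promoters had 18.9 and 25.9 there. Median GC content was 50.3% at these lincRNA and 54.4% at these coding promoters, and its part in the gap was not tested. Of the reads in a lincRNA window, a median of 72.7% fell downstream of the TSS in the scramble library, and 169 of 238 promoters had over 50% there.

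**Figure D1:**
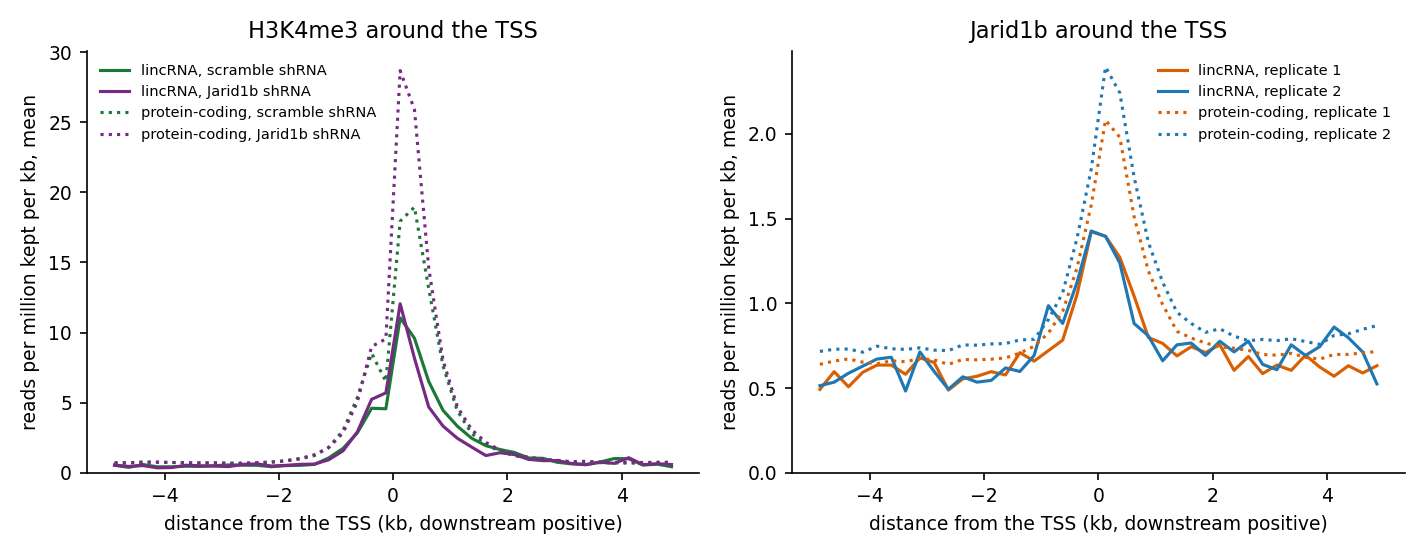
Mean RPM per kb in 250-base bins around the TSS, for H3K4me3 (left) and Jarid1b (right); solid lines are the 238 lincRNA promoters and dotted lines the 13429 protein-coding promoters with H3K4me3 in the scramble library. The scramble and shRNA lines of the lincRNA promoters peak at 11.05 and 12.1, while those of the coding promoters peak at 18.9 and 28.7, and Jarid1b rises far less above its flanks.

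Listed hosts of small RNAs made up 6 of the 10 promoters with most H3K4me3. The highest count was at 2410006H16Rik, with 438 reads in the scramble library and 107 in the shRNA library. Snhg5, a small nucleolar RNA host on chromosome 9, held 378 and 66 reads. Snhg12 held 321 and 79, and Gm11974, which RefSeq names Snhg15, held 295 and 67. Snhg5, Snhg12, Snhg7, Gm11974, 9430008C03Rik (Snhg17) and 2410004N09Rik (Epb41l4aos) were these 6, at 60.8 to 93.7 times the genome rate. The 4 others were 2410006H16Rik, Gm10492, 5430416N02Rik and 2410003L11Rik.

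Of the 29 promoters in the 5 gene lists used here, 23 had H3K4me3 in the scramble library, beside 47.4% of the 502 lincRNA promoters and 60.5% of all windows. All 10 small RNA hosts did, with a median of 245.5 reads, all 3 broadly expressed lincRNAs (median 104), 7 of 8 stem cell lincRNAs (median 59), 2 of 3 imprinted lincRNAs and 2 of 6 neural and developmental lincRNAs (median 5.5). A930011O12Rik is in 2 of the lists. All windows have the same length, so these reads compare directly. The lists are small and were not tested against one another.

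The change in H3K4me3 between libraries was taken as the log2 ratio of RPM, Jarid1b shRNA over scramble, at promoters that were called in the scramble or the shRNA library and held at least 20 reads in their sum. Of the lincRNA promoters 219 met this, and those with a 2-fold or larger change whose exact Clopper-Pearson 95% interval left out 0 were counted as higher or lower. Higher H3K4me3 was found at 36 of the 219 (16.4%, 12.1% to 21.9%), where 24.1% of all compared windows were higher. Lower H3K4me3 was found at 30 (13.7%, 9.77% to 18.9%), where 2.54% of all compared windows were lower. The median log2 ratio was -0.03 (interval of the median -0.20 to 0.14) over the lincRNA promoters and 0.41 (0.38 to 0.43) over 13273 coding promoters.

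Thus lincRNA promoters moved in both directions in like numbers, 107 with a ratio above 0 and 112 below. Compared coding promoters were higher at 3184 and lower at 315 (2.37%). This split depends on the scaling: the share of higher among called lincRNA promoters was 54.5% with reads kept, 23.9% when the coding median was set to 0, 85.2% when reads in background bins set the scale, and 34.1% when each ratio was divided by that of background bins of the same GC content. A common scaling moves both medians by the same amount and leaves the difference between them as it is. Settings that depend on GC content do not. With the trend of the ratio over GC content removed, the medians were -0.0078 at lincRNA and -0.00026 at coding promoters. Divided by background bins of the same GC content they were -0.15 and -0.023. Members at the 20-read minimum, such as Gm17496 with 10 and 10 reads (0.97) or B230209K01Rik with 16 and 4 (-1.03), and those just under it, such as Gm17423 with 10 and 9 (0.82) or Gm16233 with 15 and 4 (-0.94), had ratios of either sign.

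**Figure D2:**
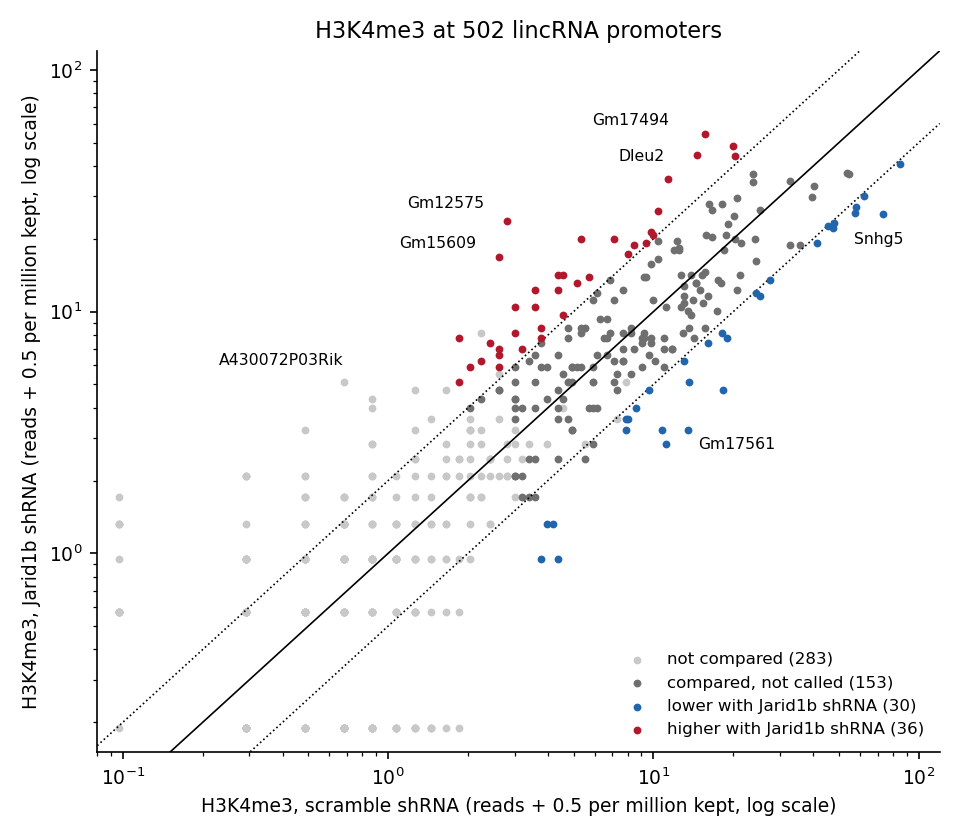
H3K4me3 at the 502 lincRNA promoters, scramble library on the x axis and Jarid1b shRNA library on the y axis, as RPM with 0.5 read added, both log scales; the solid line is equality and the dotted lines are 2-fold. The 36 higher promoters are spread over low and middle scramble levels, while several of the 30 lower ones, Snhg5 among them, lie at the top of the scramble range.

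Lower H3K4me3 with the Jarid1b shRNA was found at most of the small nucleolar RNA hosts. At Snhg5 378 scramble reads (73.3 RPM) stood against 66 shRNA reads (25.04 RPM), a log2 ratio of -1.55 (-1.95 to -1.17), and the promoter stayed lower under each alternative run (-1.96 to -1.30). At Gm11974 (Snhg15) 295 against 67 reads gave -1.17 (-1.57 to -0.78). At Snhg4 212 against 50 gave -1.12 (-1.59 to -0.66). All 6 promoters of Snhg genes had ratios below 0 and 5 of them were called lower, with a median of -1.11. The sixth, 9430008C03Rik (Snhg17), had 282 and 97 reads and a ratio of -0.57 (-0.92 to -0.23), under 2-fold.

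Snhg7, with 245 and 58 reads, had a ratio of -1.11 (-1.55 to -0.69). Snhg12, with 321 and 79, had -1.05 (-1.43 to -0.69), and 2410004N09Rik (Epb41l4aos), with 246 and 61, had -1.04 (-1.47 to -0.63). These calls sat close to the 2-fold limit. Scaled to background bins, only Snhg5 of the 6 lower small RNA hosts stayed called, at -1.30, while the 6 Snhg ratios remained below 0 (-1.30 to -0.32). With the GC trend removed 3 of the 10 small RNA hosts were lower, and with windows of 500 bases on each side 3 were. The Snhg windows hold 47.65% to 51.15% GC, and background bins of 47.5% to 50% GC had a log2 ratio of 0.0056 between the libraries, and those of 50% to 52.5% GC had 0.18.

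The 3 microRNA hosts had ratios above 0. Dleu2, which carries miR-15a and miR-16-1, had 75 scramble reads (14.5 RPM) and 117 shRNA reads (44.4 RPM), a log2 ratio of 1.61 (1.18 to 2.05). AI854517 (Mir9-3hg), a host of miR-9, had 13 and 15 reads and 1.18 (0.0034 to 2.37), a call on few reads. A930011O12Rik (Mir124a-1hg), a host of miR-124, had 103 and 65 reads and 0.30 (-0.17 to 0.77). Over all 10 small RNA hosts 2 were higher and 6 lower, with a median of -1.05, beside -0.03 for all compared lincRNA promoters. Of all compared lincRNA promoters 16.4% were higher and 13.7% lower, and of all compared windows 24.1% and 2.54%. Dleu2 has 66.65% GC and lost its call when the GC trend was removed (0.15). AI854517 lost its call in that setting too (0.21), and also without the shift, with windows of 500 bases on each side and with the coding median set to 0. A930011O12Rik fell below 0 with the trend removed (-0.44) and when divided by background bins of the same GC content (-0.36).

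Stem cell lincRNAs had no higher promoter and 3 lower ones of 8 compared, with a median of -0.83. Lower calls were made at 13.7% of all compared lincRNA promoters and 2.54% of all compared windows. C330046G13Rik (Platr7) held 93 and 21 reads, with a ratio of -1.18 (-1.94 to -0.48). Gm16880 (Platr22) held 82 and 19, with -1.14 (-1.94 to -0.41), and C430002E04Rik (Platr4) held 125 and 31, with -1.04 (-1.66 to -0.47). These Platr genes, named for their association with pluripotency, stand in windows of 40.25% to 45.75% GC, where background bins had ratios from -0.39 (40% to 42.5% GC) to -0.14 (45% to 47.5% GC). None of the 8 was lower once the GC trend was removed or background bins set the scale. Coding genes that mark ES cells, counted in the same windows, had scramble and shRNA reads of 239 and 52 at Nanog, 220 and 50 at Tdgf1, 116 and 22 at Zfp42, 73 and 20 at Dppa4 and 401 and 126 at Pou5f1, beside 239 and 143 at Sox2 and 161 and 133 at Klf4. The shRNA library is the shallower, and the part of these markers in the result was not tested.

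The other stem cell lincRNAs were not called. 2410114N07Rik (Platr9) had 30 and 7 reads, with -1.13 (-2.56 to 0.09), and Gm11019 (Lncenc1) had 30 and 10, with -0.62 (-1.81 to 0.46). 4930500J02Rik (Platr14) had 36 and 16, with -0.20 (-1.15 to 0.69). Gm17580 (Platr30) had 24 and 13, with 0.08 (-1.01 to 1.12), in a window where 0.457% of 31-base sequences occur once in the genome. 2810011L19Rik (Tunar), needed for pluripotency and neural commitment, had a ratio above 0, with 122 and 97 reads and 0.64 (0.24 to 1.03), under 2-fold, at 62.55% GC. Its ratio fell below 0 with the GC trend removed (-0.50) and when divided by background bins of the same GC content (-0.54).

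The broadly expressed lincRNAs had ratios near 0. 1700020I14Rik (Oip5os1, known as Cyrano) had 130 scramble and 69 shRNA reads and a ratio of 0.05 (-0.39 to 0.49). Pvt1, the neighbour of Myc, had 104 and 52 reads and -0.03 (-0.54 to 0.46). Gm16197 (Trp53cor1, known as lincRNA-p21) had 57 and 27 and -0.11 (-0.83 to 0.58). None was called, and their signs change with the scaling: all 3 were above 0 with background bins and below 0 with the coding median.

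Among imprinted lincRNAs, Meg3 had 79 and 28 reads, with a ratio of -0.53 (-1.20 to 0.11). Airn, the antisense RNA that silences Igf2r on the paternal allele and starts inside that gene, had 16 and 10, with 0.29 (-1.01 to 1.52). Mirg, a microRNA-containing gene of the same cluster as Meg3, had 3 and 1 reads and no H3K4me3 call. The reads do not separate the parental alleles.

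Neural and developmental lincRNAs were mostly without a call. Rmst had 3 and 0 reads, Sox2ot 2 and 1 and Dlx1as 3 and 1, all at the background. C130071C03Rik (8 and 12 reads) was not called in either library, though a window at the genome rate would hold 4.03 and 2.06 reads. Its missing call thus does not show an unmarked promoter. Miat, expressed in neurons, had 24 and 20 reads and a ratio of 0.71 (-0.23 to 1.62). The 4 promoters without a call show only that the annotated gene-level TSS did not pass the test, since RNAs such as Sox2ot start at several sites.

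**Figure D3:**
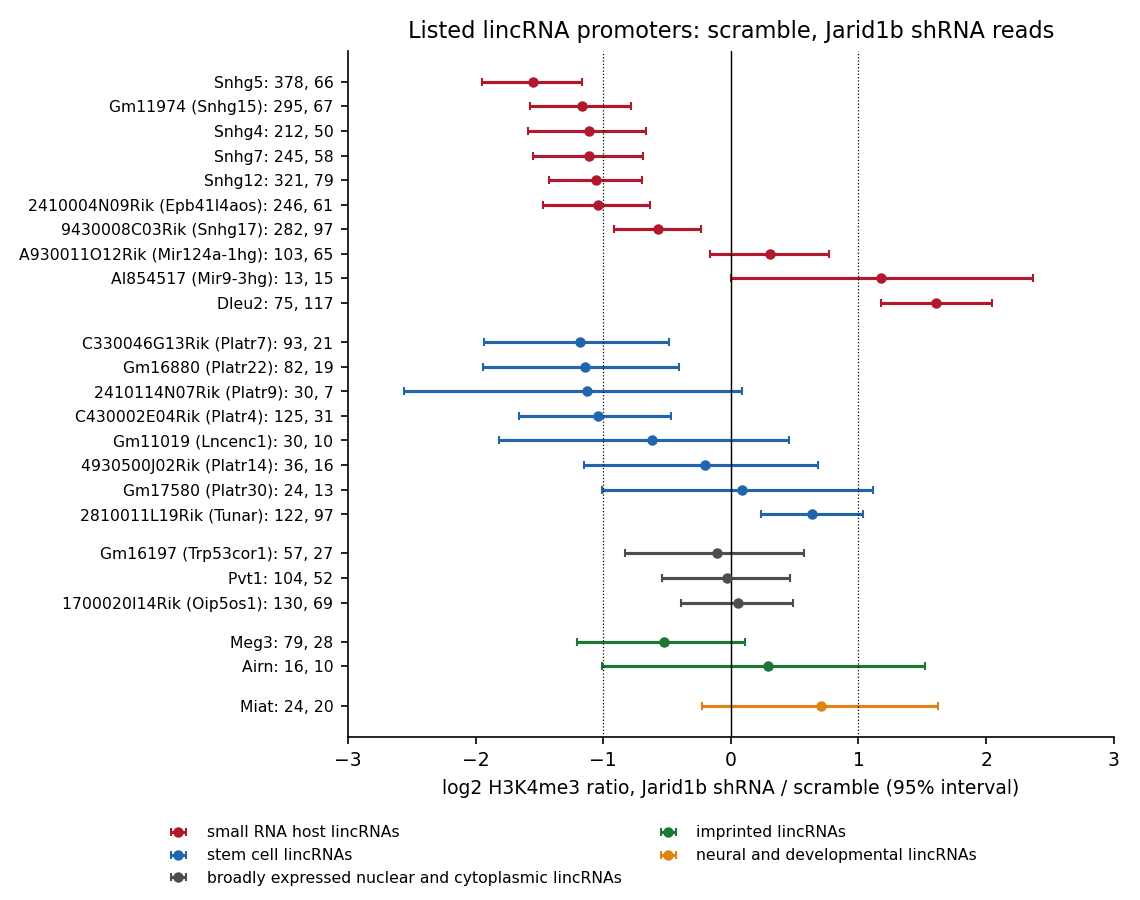
Log2 ratio of H3K4me3 (Jarid1b shRNA over scramble) with its 95% counting interval for the 24 listed lincRNA promoters that were compared, coloured by list, with the reads of the scramble and the shRNA library beside each name; A930011O12Rik belongs to 2 lists and is drawn once. Small nucleolar RNA hosts lie near -1, the broadly expressed lincRNAs near 0, and Dleu2 at 1.61.

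Lower H3K4me3 was frequent among the lincRNA promoters with the most H3K4me3. All 10 promoters with most scramble reads had ratios below 0 under each of the settings in which they were recomputed, and 8 were lower (1 when scaled to background bins). Of 32 lincRNA promoters with at least 100 scramble reads 12 were lower (37.5%, 22.9% to 54.7%), 2 were higher and the median ratio was -0.60. Of 6103 coding promoters at that level 3.15% were lower and the median was 0.07. At under 20 scramble reads the order turned, with 17 of 43 lincRNA promoters higher, 1 lower and a median of 0.89, beside 0.97 at 886 coding promoters. The scramble reads enter both the level and the ratio, so a trend of this direction is built in. The comparison with coding promoters of like level is not free of it. At least 100 reads were held by 32 of 238 marked lincRNA promoters but 6103 of 13429 marked coding ones, so choosing by level can act differently in the 2 sets. The 12 lower promoters include the 6 lower small RNA hosts given above. The median GC content at 100 or more reads was 51.0% in the lincRNA windows and 54.45% in the coding windows.

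The 8 lowest ratios among promoters with at least 50 reads included Snhg5 and 7 lesser known genes. Gm17561, which starts inside Wiz, had 69 and 8 reads, a ratio of -2.14 (-3.41 to -1.08), in a window where 56.4% of 31-base sequences occur once. Atp10d, a lipid flippase gene that RefSeq types as a transcribed pseudogene, had 57 and 7, with -2.06 (-3.43 to -0.92). Gm17337 had 94 and 12, with -2.001 (-3.004 to -1.13). Gm16986 had 55 and 8, with -1.81 (-3.09 to -0.73), and only 11.98% of its window is unique at 31 bases. Gm17516 (-1.46), 9330185C12Rik (-1.31) and 4833407H14Rik (-1.22) followed. In these windows the shRNA library retained 7 to 66 reads, at 3.40 to 32.0 times its genome rate.

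Among promoters with at least 50 reads in both libraries together, the 8 highest ratios belonged to GC-rich promoters, at 54.9% to 65.0% GC. Gm12575 (RefSeq Unc45bos), which starts inside Unc45b, had 14 scramble reads (2.71 RPM) and 62 shRNA reads (23.5 RPM), a ratio of 3.12 (2.26 to 4.07), and it stayed higher under each alternative run (1.93 to 3.47). Gm15609, which starts inside Shank3, had 13 and 44 reads, with 2.73 (1.81 to 3.74). Gm3834 had 27 and 52, with 1.91 (1.22 to 2.64). Gm17494 had the most shRNA reads of all 502, 143 against 80 in the scramble library, with 1.81 (1.40 to 2.22).

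Gm16977 (1.80), 9630013D21Rik (1.72), Gm16862 (1.65) and Ttc28 (1.65) completed the 8, and RefSeq types Ttc28 as protein-coding. With the GC trend removed the ratio of Gm17494 was 0.62 and no longer passed. In all, 21 of the 219 compared lincRNA promoters were higher and 17 lower with the trend removed. Of 13273 compared coding promoters, 7.08% were higher and 2.999% lower in that setting. When divided by background bins of the same GC content, 14 of the 219 lincRNA promoters were higher and 27 lower. Coding promoters were then higher at 7.32% and lower at 3.79%.

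GC content of the window moved with the ratio but not with the scramble level of the compared promoters (Spearman rho 0.03 over 219). The higher lincRNA promoters held 45.35% to 66.65% GC (median 57.4%) and the lower ones 40.25% to 51.85% (median 48.0%). Over the 219 compared promoters GC content and the log2 ratio correlated with Pearson r 0.61 and Spearman rho 0.57, which describes these promoters within the same library pair. Background bins of 1 kb, over 5 kb from any annotated TSS and without H3K4me3 enrichment, had log2 ratios between the same libraries from -0.65 at 30% to 32.5% GC to 0.79 at 60% to 62.5% GC and 1.18 at 62.5% to 65% GC (218 bins). The part of this trend in the promoter ratios was not tested beyond the values with the trend removed.

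By GC class the lincRNA promoters followed the coding promoters in some readouts and not in others. At up to 45% GC, H3K4me3 was called at 23.9% of 155 lincRNA promoters (17.8% to 31.2%) and 8.30% of coding promoters (7.57% to 9.09%). At 45% to 50% GC the order was the reverse, 44.4% of 169 (37.1% to 51.9%) against 51.5%, and at 50% to 55% GC 63.3% of 128 (54.7% to 71.1%) against 74.9%. Above that, 87.8% of 41 lincRNA promoters at 55% to 60% GC and all 9 over 60% GC were called, beside 90.3% and 97.3% of coding promoters. When coding promoters were weighted to the GC classes of the lincRNA set, 48.1% had H3K4me3, close to the 47.4% of the set.

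The median log2 ratio climbed over the same classes, from -0.59 through -0.32, -0.11 and 0.94 to 1.61 at lincRNA promoters and from -0.66 through -0.24, 0.18 and 0.65 to 1.18 at coding promoters. The interval of the lincRNA median held the coding median in each class but that of 55% to 60% GC, where it began at 0.66 against a coding median of 0.65. Lower calls were more frequent at lincRNA promoters than in coding promoters weighted to the same GC classes, 13.7% (9.77% to 18.9%) against 6.05%. Higher calls were 16.4% (12.1% to 21.9%) against 12.7%.

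**Figure D4:**
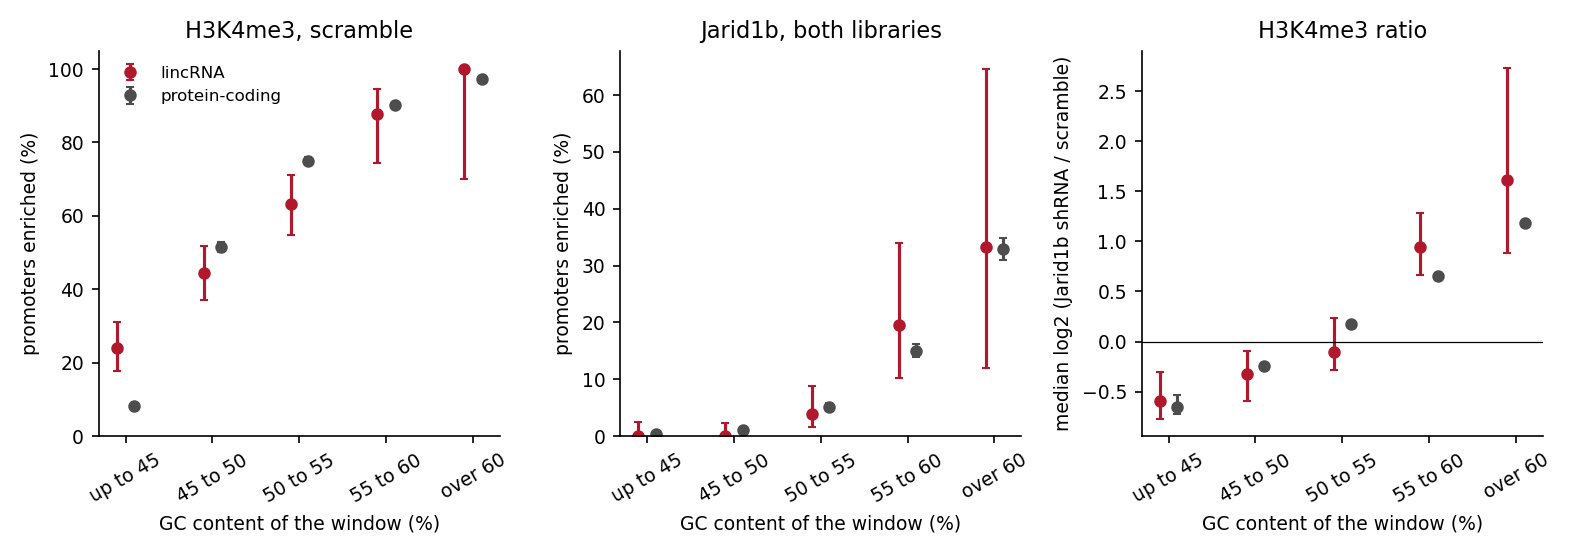
Share of promoters with scramble H3K4me3 (left), share enriched in both Jarid1b libraries (middle) and median log2 H3K4me3 ratio (right) by GC content of the window, for lincRNA (red) and protein-coding (grey) promoters, with 95% intervals. All 3 readouts climb with GC content in both kinds of promoter, and lincRNA promoters stand above coding ones in H3K4me3 at up to 45% GC (23.9% against 8.30%).

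Jarid1b was called at 16 of the 502 lincRNA promoters (3.19%, 1.97% to 5.11%), where 8.0% of all windows were called in both Jarid1b libraries. The first library alone called 72 (27.0% of all windows) and the second, with fewer reads, 24 (10.8% of all windows). Reads per lincRNA window ran from 0 to 28 in the first and 0 to 16 in the second, with medians of 6 and 2. Of the 16 promoters, 14 also had H3K4me3 in the scramble library. With coding promoters weighted to the same GC classes the share was 3.62%. The count of 16 became 7 with windows of 500 bases on each side, 3 at a threshold of 0.001 and 84 against the genome rate alone.

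The strongest Jarid1b signal was at Gm12575, with 28 and 16 reads, 8.26 and 12.8 times the genome rate. AI854517 (Mir9-3hg) and 9530036O11Rik, which starts inside Shh, a morphogen gene, each had 24 and 12 reads, 7.08 and 9.58 times the rate. A430072P03Rik had 25 and 9 reads, Gm3834 24 and 8, Gm16899 16 and 11, 9530059O14Rik 17 and 10, and Gm7782 19 and 9. These counts are small, and the counting intervals of the 8 overlap in each library. Gm12575, Gm7782, Gpr137b-ps and Gm7822 lie in windows where under 80% of 31-base sequences occur once.

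**Figure D5:**
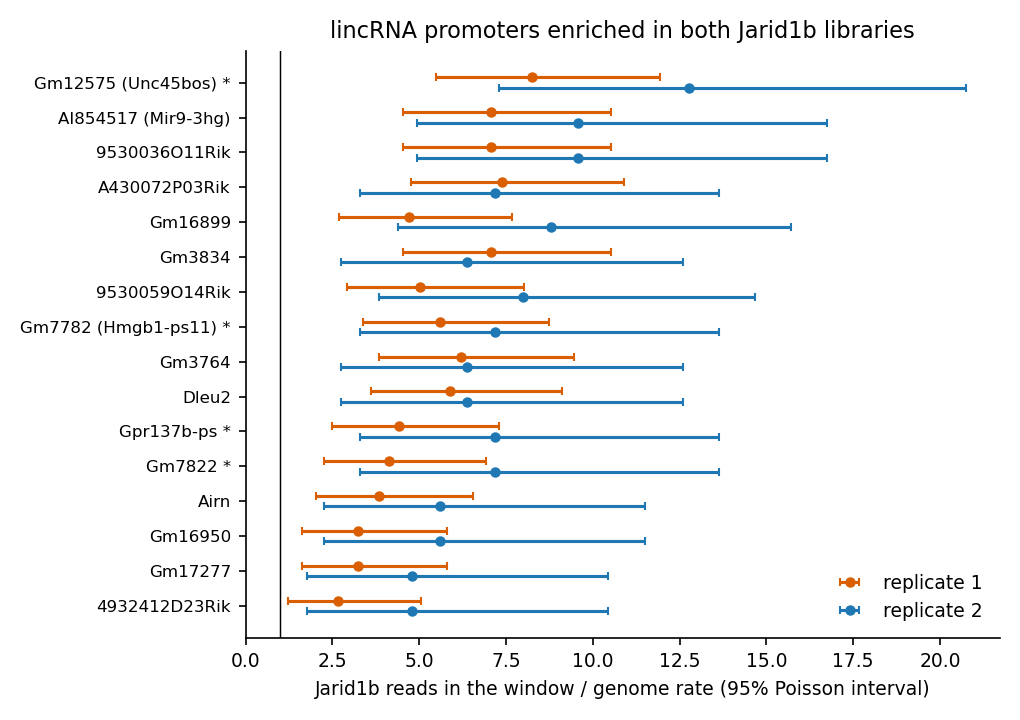
Jarid1b reads over the genome rate with 95% Poisson intervals in the first (orange) and second (blue) library for the 16 lincRNA promoters enriched in both; an asterisk marks windows under 80% unique at 31 bases. Gm12575 is highest in both libraries, at 8.26 and 12.8, and most intervals overlap.

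H3K4me3 at the 16 Jarid1b promoters was modest in the scramble library, with 3 to 122 reads and a median of 22.5. Gm12575 (14 scramble reads), AI854517 (13) and 9530036O11Rik (15) were near the low end, and A430072P03Rik, with 3, was not called there. In the shRNA library A430072P03Rik had 13 reads and was called, but 16 reads over both kept it out of the ratios. Gm16950, with 8 and 5 reads, was called in neither.

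Of the 16 promoters 14 could be compared for H3K4me3, and 7 were higher and 0 lower with the Jarid1b shRNA, with a median ratio of 1.03. The higher ones were Gm12575, Gm3834, 9530036O11Rik (15 and 27 reads, 1.82), Dleu2, Gm17277 (18 and 27 reads, 1.55), 9530059O14Rik (36 and 52 reads, 1.499) and AI854517. At 205 compared lincRNA promoters without the Jarid1b call 29 were higher (14.1%, 10.03% to 19.6%), against 50.0% (26.8% to 73.2%) of the 14. Of all compared windows 24.1% were higher. The 14 held a median of 58.3% GC and the 205 held 50.1%. Of all compared lincRNA promoters 17 of 36 were higher at 55% to 60% GC and 7 of 9 over 60% GC. The part of Jarid1b in this contrast was not tested. Coding promoters with the Jarid1b call were higher at 49.4% of 1757, with a median of 0.99. The 16 windows hold 51.6% to 66.65% GC, so GC content moved with both readouts. Of the 6 higher ones that were recomputed, Dleu2 (0.15), AI854517 (0.21) and 9530059O14Rik (0.72) lost the call with the GC trend removed, and Gm12575 (1.98), 9530036O11Rik (1.07) and Gm3834 (1.04) kept it. The same 3 lost it when divided by background bins of the same GC content, at 0.43, 0.39 and 0.83.

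No lincRNA promoter of up to 50% GC was called for Jarid1b, 0 of 324, which allows a share of up to 0.926%. Coding promoters were called at 0.375% up to 45% GC and at 1.08% from 45% to 50% GC, so the count of 0 is near their share. The counts in the 3 richer classes were 5 of 128, 8 of 41 and 3 of 9, beside 5.19%, 15.0% and 32.9% of coding promoters. Jarid1b reads of the first library and GC content had a Spearman rho of 0.64 over the 502 windows, which share that library and its depth. When the background rate was raised by the level of Jarid1b reads in background bins of the same GC content, none of the 16 stayed called (3 lincRNA promoters had an unadjusted p under 0.05 in both libraries). When the factor was applied to the genome rate alone, Gm12575 stayed called, and 16 lincRNA promoters had an unadjusted p under 0.05.

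Around the TSS of the 238 lincRNA promoters with H3K4me3, Jarid1b was highest in the 250-base bins on either side of the TSS, which were nearly level at 1.42 and 1.395 RPM per kb in the first library. The higher bin was 2.47 and 2.21 times the flanks in the first and second library. At coding promoters with the mark the highest bin was 3.06 and 3.07 times the flanks. The 6 Snhg promoters, among the strongest for H3K4me3, had medians of 8.5 and 4 Jarid1b reads in the first and second library, beside 8.5 and 3 at all 238 marked lincRNA promoters. Snhg12 had 3 and 1, Snhg7 5 and 5 and Snhg5 12 and 4, and 2 of the 6 were called in the first library. The Platr promoters had 2 to 12 reads in the first library. None of these was called in both libraries.

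Nearest coding genes were set beside the lincRNA promoters. For 152 lincRNA promoters both the lincRNA and the nearest coding gene could be compared, and the ratios correlated with Pearson r 0.13 and Spearman rho 0.15 across these pairs. The median was -0.0030 at the lincRNA promoters and 0.56 at their neighbours. Of 27 higher lincRNA promoters 14 had a higher neighbour, and of 22 lower lincRNA promoters 0 had a lower neighbour. Of all compared coding promoters 24.0% were higher and 2.37% lower, so a count of 0 among 22 is near that share. C430002E04Rik (Platr4) and its neighbour Phf17 came near, with -1.04 and -0.88, as did Snhg5 and Zfp949, with -1.55 and -0.92. Gm17494 (1.81) and its neighbour Dnttip2 (-0.56), and Snhg7 (-1.11) and Fam69b (1.54), had opposite signs.

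Few lincRNA promoters had a developmental regulator as the nearest coding gene. Of 12 such promoters 4 were marked in the scramble library and 6 in the shRNA library, beside 47.8% and 42.2% of the 490 others. Of the 4 compared 2 were higher and 1 lower, beside 15.8% and 13.5% of the compared others and 24.1% and 2.54% of all compared windows. These counts are too small to read as a difference. These were named after their values were seen. Gm16956, near Foxn3, had 48 and 50 reads, with a ratio of 1.03, and Gm17696, near Barhl2, had 15 and 21, with 1.45. 2610307P16Rik, near Sox4, had 44 and 10, with -1.17, and Gm17704, near Pax2, had 22 and 10, with -0.17. The 2 marked in the shRNA library alone were Gm11538, near Hoxb13, with 7 and 9 reads, and Gm12676, near Nfia, with 4 and 11, both too few to compare.

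Sequence features of the promoters went with the calls. In the 300 bases from 200 before the TSS, lincRNA promoters held a median of 5 CpG and coding promoters 13. LincRNA promoters with scramble H3K4me3 held 11 and those with H3K4me3 in neither library 4. Higher promoters held a median of 25.5 CpG (3 to 52) and lower ones 7.5 (0 to 33), so the ranges overlapped. Snhg5, printed above with 25 CpG, is a lower promoter with as many CpG as the median higher one.

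The GC box (GGGCGG on either strand), to which Sp1 family factors bind, was in 25.3% of the lincRNA windows and 44.8% of all windows of that length. It was in 41.2% of lincRNA windows with scramble H3K4me3, 9.84% of those with the mark in neither library, 58.3% of the higher and 40.0% of the lower ones. TATAAA on either strand, the letters of a TATA box, was in 12.4% of lincRNA windows and 11.9% of all windows, in 6.72% of those with the mark and 17.3% of those without. CCAAT on either strand was in 37.1% and 36.8%. A match of letters is not a bound site, and the GC box itself holds a CpG.

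The annotation limits what some windows stand for. Of the 502 genes 248 matched a RefSeq symbol, which RefSeq types as non-coding for 216, protein-coding for 16, pseudogene for 15 and microRNA for 1. A provisional Gm symbol was carried by 310 genes. In 48 windows under 80% of 31-base sequences occur once in the genome, and 32 of these had scramble H3K4me3, beside 206 of the 454 others. Among those 48 were 2 higher, 4 lower and 4 Jarid1b promoters. There were 7 pairs of windows that overlapped each other, so a few promoters share reads.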

How the data were processed

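The files hold 1 row per aligned read (chromosome, start, end, strand), with start and end in bases of mm9. The authors mapped the tags to mm9, per the labels' protocols, and used Bowtie for it, per the submitters' processing notes. The Bowtie version is not stated there. The protocols also describe MACS peaks and IgG normalization, and neither an IgG library nor a peak list was used here. The deposited rows still repeat positions, which made up 15.3%, 7.69%, 31.5% and 7.56% of the rows of Jarid1b libraries 1 and 2, scramble H3K4me3 and shRNA H3K4me3.

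Here each 5′ end on a given strand was counted once on chromosomes 1 to 19, X and Y, and moved 75 bases towards the fragment centre. Windows were 2000 bases around the gene-level TSS of GENCODE vM1. Enrichment and ratios were computed in Python 3.11.15 with numpy 2.4.6, scipy 1.17.1 and pandas 2.3.3 by code tested on simulated data, with p-values adjusted over all 23640 windows. The genome rate used 2558509480 non-N bases, and the local rate left the window itself out. Sequences were read from mm9, and RefSeq names came from a table of another build, used for names only.

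Named promoters have a unique symbol and are the 10 with most scramble reads, the 8 highest and 8 lowest ratios among promoters of 50 or more reads whose interval leaves out 0, the 8 with the highest mean Jarid1b fold among those called in both libraries, those nearest the 20-read minimum, and all members of the 5 gene lists. The members and lists were chosen with earlier results of these data known. Alternatives tried were repeated rows, the shift, the window, the threshold, the background, the scaling, GC content, the read minimum, the distance limit, coding gene bodies, thinning to equal depth and, added after seeing the data, unique sequence, RefSeq type and background bins of like GC content.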

Additional observations from a re-analysis of the deposited data

How the results depend on the processing

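The counts of lincRNA promoters with H3K4me3 stayed within 1.5 times of 238 (scramble) and 213 (Jarid1b shRNA) under every alternative run. Promoters enriched in both Jarid1b libraries went from 16 to 7 with windows of 500 bases on each side, 3 at a threshold of 0.001 (Gm16899, Gm7782 and Gm7822), 84 against the genome rate alone, 0 with the background raised by GC content, 1 with that factor on the genome rate only, and between 24 and 72 when either Jarid1b library was left out. Higher promoters went from 36 to 16 when scaled to the coding median, 21 with the GC trend removed, 21 with at least 50 reads, and 14 when divided by background bins of the same GC content. Lower promoters went from 30 to 51 when scaled to the coding median, 8 when scaled to background bins and 17 with the GC trend removed. The median log2 ratio of -0.03 became -0.44 with the coding median and 0.21 with background bins. Where no value shows the cause, the cause was not tested. Over the 47 named promoters with a ratio, 273 of 329 values under alternatives kept their call or, where there was none, stayed without one and inside the counting interval of the ratio. None of the called ratios changed sign, while some ratios without a call did, among them those of Pvt1, Gm16197, Airn, 2810011L19Rik (Tunar) and A930011O12Rik. No paired analysis was possible because each H3K4me3 condition has 1 library and the Jarid1b libraries have no counterpart in another group. Depth limits the shRNA library to 2.06 reads per window at the genome rate and the second Jarid1b library to 1.25.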
